A study of Mus musculus with 12 samples.

Results

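Endothelial activation and adhesion genes encode the surface molecules, receptors and ligands through which the cells lining blood vessels hold together, catch passing leukocytes and respond to inflammation. The set held 10 listed genes, chosen by name: Sele, Selp, Icam1, Pecam1, Cdh5, Tek, Angpt2, Madcam1, Kdr and Esam. Each gene was read from the probe set whose annotation gave that symbol alone, and 9 of the 10 had such a probe set, out of 19938 genes measured in all. Selp was not analysed here.

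Vessels respond to bacterial products and to cytokines such as TNF and IL-1 through NF-kappaB, which switches on E-selectin and ICAM-1 at the endothelial surface so that leukocytes roll, stop and cross. Vessel stability is set in part by the receptor Tie2, encoded by Tek: angiopoietin-1 keeps it active and angiopoietin-2, released by activated endothelium, can oppose it. The spleen filters blood, and MAdCAM-1 lines its marginal sinus.

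Spleens of C57BL/6 mice were profiled on 12 Affymetrix arrays, 4 per group, called biological replicates in the labels. The first group was septic TLR-deficient: the titles name Trif and myd, adaptors of Toll-like receptor (TLR) signalling, and the mice underwent colon ascendens stent peritonitis (CASP), in which a stent in the colon wall lets gut bacteria into the abdomen. The second was wildtype mice with the same operation (septic wildtype), and the third was untreated wildtype mice, whose titles give a time of zero hours. The labels give no age, sex or time from operation to sampling, and no untreated TLR-deficient mice were among the samples, so genotype is compared only among septic mice and sepsis only among wildtype mice. All levels are on the log2 scale of the deposited table, where a difference of 1 is a doubling.

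The arrays did not sort by label. Septic wildtype replicate 2 stood apart: across genes, its Pearson correlation with the others was 0.765 to 0.809, against 0.956 to 0.991 among the other 11 arrays, and its values had a standard deviation of 1.52 against 2.11 to 2.24. Only 5 of 12 arrays were most like an array of their own label. The title numbers M5 to M8, M9 to M12 and M13 to M16 stand for replicates 1 to 4 of septic TLR-deficient spleens, of septic wildtype spleens and of untreated spleens. Runs of these numbers shifted by 1 (M5 to M7 with M16, M8 to M11, and M12 to M15) are described below beside the labels. They were drawn up with the values known, so they are given without means or tests. Xist, the X-inactivation RNA, was at 3.73 to 4.33 on M12 to M15 and at 8.94 to 10.94 elsewhere, so the last run also differs in sex-linked transcripts. Eif2s3y, a Y-linked gene, was at 7.21 to 7.95 on M12 to M15 and 2.48 to 2.68 elsewhere, apart from 4.50 on septic wildtype replicate 2. M12 to M15 are septic wildtype replicate 4 and untreated replicates 1 to 3, so the labelled groups were not balanced in these transcripts. Among the TLR adaptors, Myd88 was at 8.62 to 9.64 on septic TLR-deficient arrays, 6.48 to 9.20 on septic wildtype arrays and 8.87 to 9.75 on untreated arrays, and Ticam1, which encodes Trif, was at 5.80 to 5.93, 5.64 to 6.22 and 5.76 to 6.57 in the same order. Where in each gene the mutation lies is not given, so a probe set could miss it and these levels do not check the genotype. Group names below therefore repeat the labels only.

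Sele and Icam1 are the inducible adhesion molecules of the set. Sele encodes E-selectin, which captures rolling leukocytes on activated endothelium. On the septic TLR-deficient arrays, replicates 1 to 4, it stood at 6.64, 6.76, 5.54 and 5.04, at 5.47, 5.75, 5.28 and 5.53 on septic wildtype replicates 1 to 4, and at 5.26, 5.17, 5.24 and 7.52 on untreated replicates 1 to 4. The highest value thus sat on an array labelled untreated, followed by 2 septic TLR-deficient arrays, and the 3 groups overlapped. By title run, M5 to M7 with M16 spanned 5.54 to 7.52, M8 to M11 5.04 to 5.75 and M12 to M15 5.17 to 5.53. The array medians over all probe sets were 5.22 to 5.54, so Sele lay near the middle of the value range on most arrays, and whether it exceeded background there was not tested.

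Icam1 encodes the ligand of leukocyte beta-2 integrins and is also carried by leukocytes. Its values were 9.59, 9.01, 8.76 and 8.29 on septic TLR-deficient arrays, 8.30, 6.22, 8.38 and 8.76 on septic wildtype replicates, and 8.63, 9.02, 9.59 and 9.45 on untreated replicates. Septic wildtype replicate 2 was lowest by a wide margin. Outside that array the narrowest run was M8, M9 and M11 at 8.29 to 8.38, below all of M12 to M15 at 8.63 to 9.59 and all of M5 to M7 with M16 at 8.76 to 9.59.

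Madcam1 encodes the mucosal addressin, which binds the integrin alpha-4 beta-7 and in spleen marks the marginal sinus. It was at 7.12, 6.91, 7.13 and 6.57 on septic TLR-deficient replicates, 6.63, 5.89, 6.51 and 6.40 on septic wildtype replicates, and 6.43, 7.62, 7.61 and 6.96 on untreated replicates. Untreated replicates 2 and 3 were highest, while untreated replicate 1 fell inside the septic wildtype range.

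The start regions of these 3 genes, and of the receptor genes Tek and Kdr described next, are shown because the first 3 are textbook inducible adhesion genes and the last 2 ran low on arrays where Sele was high. Each window runs from 250 bases before to 50 after the gene start in RefSeq, build GRCm38.p6, 5′ to 3′ on the gene's strand. Capitals mark matches to GGNNNTTCC, an NF-kappaB-like pattern, on either strand.
Sele, chr1:164047984-164048283, plus strand: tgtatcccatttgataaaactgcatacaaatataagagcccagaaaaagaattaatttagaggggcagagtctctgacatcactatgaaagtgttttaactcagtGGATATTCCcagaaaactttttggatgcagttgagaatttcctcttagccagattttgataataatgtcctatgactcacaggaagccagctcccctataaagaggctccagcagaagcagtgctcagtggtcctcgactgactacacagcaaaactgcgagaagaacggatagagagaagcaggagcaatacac
Icam1, chr9:21015690-21015989, plus strand: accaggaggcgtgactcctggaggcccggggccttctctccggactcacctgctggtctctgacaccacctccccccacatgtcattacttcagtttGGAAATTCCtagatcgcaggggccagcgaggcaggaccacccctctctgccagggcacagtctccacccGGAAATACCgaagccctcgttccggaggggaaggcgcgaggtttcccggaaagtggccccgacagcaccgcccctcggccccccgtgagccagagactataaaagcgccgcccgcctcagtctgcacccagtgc
Madcam1, chr10:79664309-79664608, plus strand: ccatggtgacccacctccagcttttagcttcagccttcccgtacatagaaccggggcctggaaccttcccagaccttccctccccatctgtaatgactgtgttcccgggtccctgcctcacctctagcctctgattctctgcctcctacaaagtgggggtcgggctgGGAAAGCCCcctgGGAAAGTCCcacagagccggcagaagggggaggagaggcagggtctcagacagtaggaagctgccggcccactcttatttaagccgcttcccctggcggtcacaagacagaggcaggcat
Tek, chr4:94739039-94739338, plus strand: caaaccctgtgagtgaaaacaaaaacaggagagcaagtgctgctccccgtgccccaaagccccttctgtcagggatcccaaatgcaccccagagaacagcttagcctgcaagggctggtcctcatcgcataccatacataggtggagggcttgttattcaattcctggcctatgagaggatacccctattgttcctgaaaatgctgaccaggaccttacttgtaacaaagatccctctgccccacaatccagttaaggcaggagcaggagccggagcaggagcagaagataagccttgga
Kdr, chr5:75978406-75978705, minus strand: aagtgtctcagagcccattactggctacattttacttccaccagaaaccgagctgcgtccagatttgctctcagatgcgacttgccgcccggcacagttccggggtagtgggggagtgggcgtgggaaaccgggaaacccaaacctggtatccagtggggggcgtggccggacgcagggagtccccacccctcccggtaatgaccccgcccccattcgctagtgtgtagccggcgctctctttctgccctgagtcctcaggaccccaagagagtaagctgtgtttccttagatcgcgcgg
Sele had 1 match (GGATATTCC, starting at position -145 from the gene start), Icam1 had matches at 2 positions (GGAAATTCC, which matches on both strands, and GGAAATACC) and Madcam1 had 2 close together (GGAAAGCCC and GGAAAGTCC), while Tek and Kdr had 0. Over 32851 promoter windows of the same length, 18.5% held at least 1 match. AGGAAG, the core bound by ETS factors, was found in the Sele, Selp and Madcam1 windows and in 35.4% of all windows. Of the 10 listed genes, 6 had a window in the table, Selp among them with 1 GGNNNTTCC match, and Pecam1, Cdh5, Angpt2 and Esam had none given. A match is a run of letters and not evidence of binding.

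Of the receptors, Tek was low on the arrays where Sele was high, and Kdr ran the same way with overlap. Tek, the gene of Tie2, was at 5.55, 5.15, 4.91 and 6.78 on septic TLR-deficient replicates, 6.63, 4.83, 6.68 and 6.35 on septic wildtype replicates, and 6.82, 6.84, 7.02 and 5.53 on untreated replicates. The 4 arrays M5 to M7 and M16 spanned 4.91 to 5.55 and the other arrays 6.35 to 7.02, apart from 4.83 on septic wildtype replicate 2. Kdr encodes VEGFR2, the main VEGF receptor of endothelium. Kdr was at 6.71, 5.32, 5.81 and 7.62 on septic TLR-deficient replicates, 7.68, 5.35, 7.44 and 6.62 on septic wildtype replicates, and 6.90, 7.30, 7.67 and 6.60 on untreated replicates. Its 3 highest septic values were on M8, M9 and M11, at 7.44 to 7.68.

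Angpt2, the ligand stored in endothelial granules, was at 7.61, 6.04, 6.27 and 5.99 on septic TLR-deficient replicates, 5.97, 5.17, 6.09 and 5.20 on septic wildtype replicates, and 6.18, 6.24, 6.08 and 7.85 on untreated replicates. Just 2 arrays, septic TLR-deficient replicate 1 and untreated replicate 4, lay above 6.27. The run that held them was therefore not uniform, since its other 2 arrays were close to the rest.

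The junction molecules hold endothelial cells together. Cdh5 encodes VE-cadherin, the adherens junction protein particular to endothelium. It was at 8.62, 8.16, 8.11 and 6.82 on septic TLR-deficient replicates, 7.37, 5.94, 7.12 and 6.68 on septic wildtype replicates, and 7.63, 7.49, 7.57 and 9.12 on untreated replicates. All 4 septic wildtype arrays lay below all 4 untreated arrays, and M5 to M7 with M16 (8.11 to 9.12) lay above the other 8 arrays (5.94 to 7.63).

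Esam, a tight-junction adhesion molecule also found on platelets, was at 7.42, 7.18, 7.31 and 6.49 on septic TLR-deficient replicates, 6.54, 5.66, 7.10 and 6.64 on septic wildtype replicates, and 7.50, 7.13, 7.01 and 7.51 on untreated replicates. Pecam1 encodes CD31, which endothelium, platelets and several leukocytes carry and which serves transmigration. Pecam1 was at 9.11, 8.62, 8.29 and 8.84 on septic TLR-deficient replicates, 8.97, 7.31, 8.67 and 8.63 on septic wildtype replicates, and 8.99, 8.72, 8.67 and 8.76 on untreated replicates. It was the steadiest member over the 11 arrays without septic wildtype replicate 2, with a standard deviation of 0.22, against 0.37 for Esam, 0.44 for Madcam1, 0.49 for Icam1 and 0.75 to 0.82 for the other 5.

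**Figure D1:**
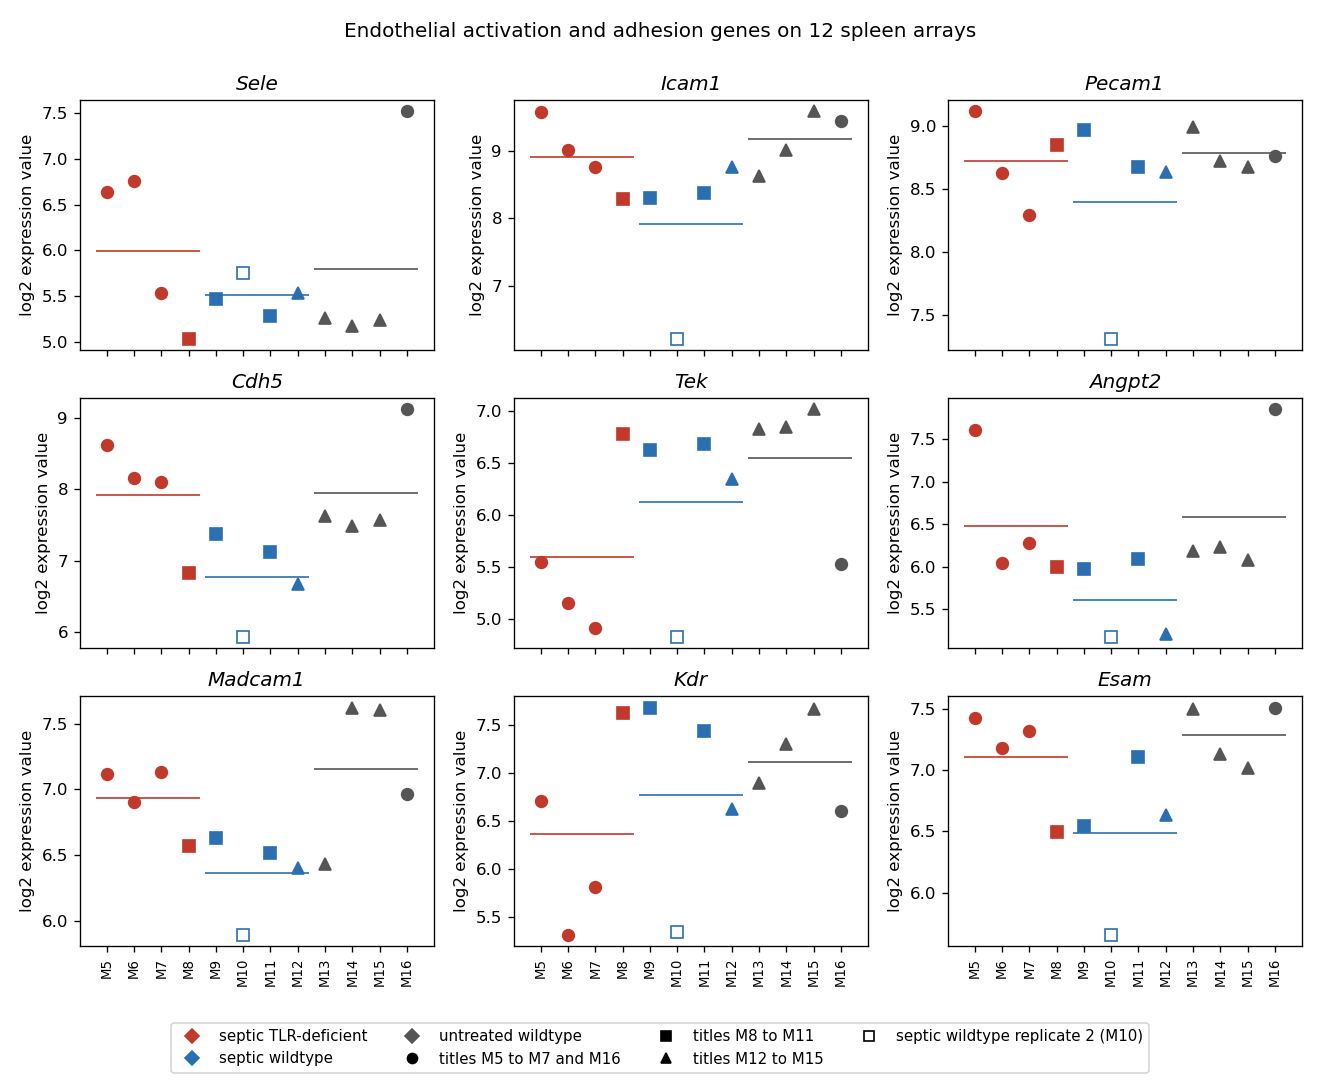
Log2 expression values of the 9 measured members (y axes) on each of the 12 arrays (x axes, by title number), with colour for the labelled group, marker shape for the run of title numbers and a line at each group mean. M16, labelled untreated, sits with M5 to M7 for Sele, Cdh5 and Tek, and septic wildtype replicate 2 (open symbol) is the lowest array for Icam1, Pecam1, Cdh5, Tek, Angpt2, Madcam1 and Esam.

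Between the 4 arrays M5 to M7 and M16 and the 7 others without septic wildtype replicate 2, 2 of 9 members (Sele and Cdh5) were higher without overlap, as were 2.18% of all genes, and 1 of 9 (Tek) was lower, as were 5.07% of all genes. Of M8, M9 and M11 against M12 to M15, 1 of 9 members (Icam1) was lower without overlap, against 6.35% of all genes, and 0 of 9 were higher, against 7.87%. These counts describe runs chosen on values of the same arrays.

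Setting the septic groups against each other asks what the TLR-deficient genotype changes during peritonitis. The groups were not balanced in sex-linked transcripts: Xist was at 4.33 on septic wildtype replicate 4 and at 9.71 to 10.84 on septic TLR-deficient arrays. VE-cadherin and ICAM-1 transcripts had the largest differences, both higher on the arrays labelled TLR-deficient. Cdh5 averaged 7.93 ± 0.77 on septic TLR-deficient and 6.78 ± 0.63 on septic wildtype arrays (SD, n = 4 each), with a difference of 1.15 (SE 0.45, adjusted p = 0.590 in limma). Icam1 averaged 8.91 ± 0.54 and 7.92 ± 1.15 (SD, n = 4 each), with a difference of 0.996 (SE 0.48), which was 0.43 without septic wildtype replicate 2. In whole spleen, a change in the number of endothelial cells or of leukocytes and a change in RNA per cell cannot be told apart.

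Means were higher in 7 of 9 members, against 43.9% of all genes, and lower in 2 of 9, against 56.1%, and the median difference was 0.57 against -0.06 over all genes. Over the 14953 genes left by a filter at percentile 25 of mean level, the median was 0.07. Without septic wildtype replicate 2, 6 of 9 were higher, against 48% of all genes, with a median of 0.42 against -0.01. Angpt2 had a difference of 0.87 (SE 0.44; 0.50 without septic TLR-deficient replicate 1), Esam of 0.62 (SE 0.30; 0.34 without septic wildtype replicate 2), Madcam1 of 0.57 (SE 0.28) and Sele of 0.49 (SE 0.51). The Sele value was 0.27 and 0.23 without septic TLR-deficient replicates 1 and 2 and 0.80 without replicate 4. Pecam1 had 0.32 (SE 0.31), but -0.04 without septic wildtype replicate 2 and -0.03 after a further quantile normalization. The receptors ran the other way: Tek had -0.52 (SE 0.49) and Kdr -0.41 (SE 0.54). Leaving out 1 array at a time gave -0.95 to -0.29 for Tek and -0.88 to -0.06 for Kdr, the lowest without septic wildtype replicate 2 and the highest without septic TLR-deficient replicates 3 and 2 in that order. No member passed an adjusted p of 0.05 in limma (0 of 9, against 0% of 19938 genes), and 1 of 9 had an unadjusted p under that value, against 6.65% of all genes. In 0 of 9 were the groups free of overlap, against 3.8% of all genes (2.05% higher and 1.76% lower). With replicates 1 to 3 only and septic wildtype replicate 2 left out as well, Cdh5 had 1.05, Tek -1.45 and Kdr -1.61. The arrays left out were picked on these values, since replicate 4 of each label resembled another label, so the calls there (3 of 9 members, against 5.03% of all genes) are no test.

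Septic against untreated wildtype spleens asks what peritonitis does with TLR signalling intact. Sex-linked transcripts differed as well, since Xist was low on septic wildtype replicate 4 and on untreated replicates 1 to 3. Every one of the 9 members had a lower mean on the arrays labelled septic wildtype, against 44.9% of all genes (55.1% were higher), although Pecam1 turned to 0.05 after a further quantile normalization. Icam1 averaged 7.92 ± 1.15 on septic wildtype and 9.17 ± 0.44 on untreated arrays (SD, n = 4 each), with a difference of -1.26 (SE 0.48, adjusted p = 0.439 in limma), or -0.69 without septic wildtype replicate 2. Cdh5 averaged 6.78 ± 0.63 and 7.95 ± 0.78 (SD, n = 4 each), with a difference of -1.17 (SE 0.45), and was the member of the 9 whose groups did not overlap, against 2.74% of all genes that were lower without overlap, 3.68% that were higher and 6.42% in either direction.

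Angpt2 had a difference of -0.98 (SE 0.44; -0.56 without untreated replicate 4), Esam of -0.80 (SE 0.30; -0.53 without septic wildtype replicate 2) and Madcam1 of -0.80 (SE 0.28). Sele had -0.29 (SE 0.51), and the sign rested on untreated replicate 4, since it was 0.29 without that array. Tek had -0.43 (SE 0.49), Pecam1 -0.39 (SE 0.31) and Kdr -0.35 (SE 0.54), and without septic wildtype replicate 2 these were 0.0001, -0.03 and 0.13. The median difference was -0.80 against 0.07 over all genes. Over the 14953 genes left by a filter at percentile 25 of mean level, the median was -0.12. Without septic wildtype replicate 2, 7 of 9 means were lower, against 44.7% of all genes, with a median of -0.53 against 0.02. In limma 0 of 9 members passed, against 0% of all genes, while 5 of 9 (Icam1, Cdh5, Angpt2, Madcam1 and Esam) had an unadjusted p under 0.05, against 8.81% of all genes.

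In septic TLR-deficient against untreated wildtype spleens, genotype and operation differ at once. Sex-linked transcripts differed too: Xist was at 9.71 to 10.84 on septic TLR-deficient arrays and at 3.73 to 4.33 on untreated replicates 1 to 3. These differences cannot be told apart. The receptors stood lowest relative to untreated: Tek averaged 5.60 ± 0.83 on septic TLR-deficient and 6.55 ± 0.69 on untreated arrays (SD, n = 4 each), with a difference of -0.95 (SE 0.49, adjusted p = 1 in limma). Kdr averaged 6.37 ± 1.02 and 7.12 ± 0.46 (SD, n = 4 each), with a difference of -0.75 (SE 0.54), or -0.40 without septic TLR-deficient replicate 2 and -1.17 without replicate 4. The other 7 lay between -0.26 and 0.20: Icam1 at -0.26, Madcam1 at -0.22, Esam at -0.18, Angpt2 at -0.11, Pecam1 at -0.07, Cdh5 at -0.02 and Sele at 0.20. The sign was not stable for 2 of these under other scalings, since Pecam1 was 0.02 and Cdh5 0.07 after a further quantile normalization and Cdh5 was 0.0058 with each array centred on its median. Without untreated replicate 4, Sele had 0.77, Cdh5 0.37, Angpt2 0.31 and Tek -1.30.

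Means were lower in 8 of 9 members, against 48.1% of all genes, and higher in 1 of 9, against 51.9%. The groups overlapped for all 9, while 3.4% of all genes did not overlap (2.4% higher and 0.998% lower). In limma 0 of 9 passed (0% of all genes), and 0 of 9 had an unadjusted p under 0.05, against 1.88% of all genes. With replicates 1 to 3 only and septic wildtype replicate 2 left out as well, Tek had -1.69 and Cdh5 0.74, and those 2 of 9 members were called, against 3.39% of all genes, again on arrays picked on their values and so no test. The 3 comparisons share arrays in pairs and are not independent of each other.

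**Figure D2:**
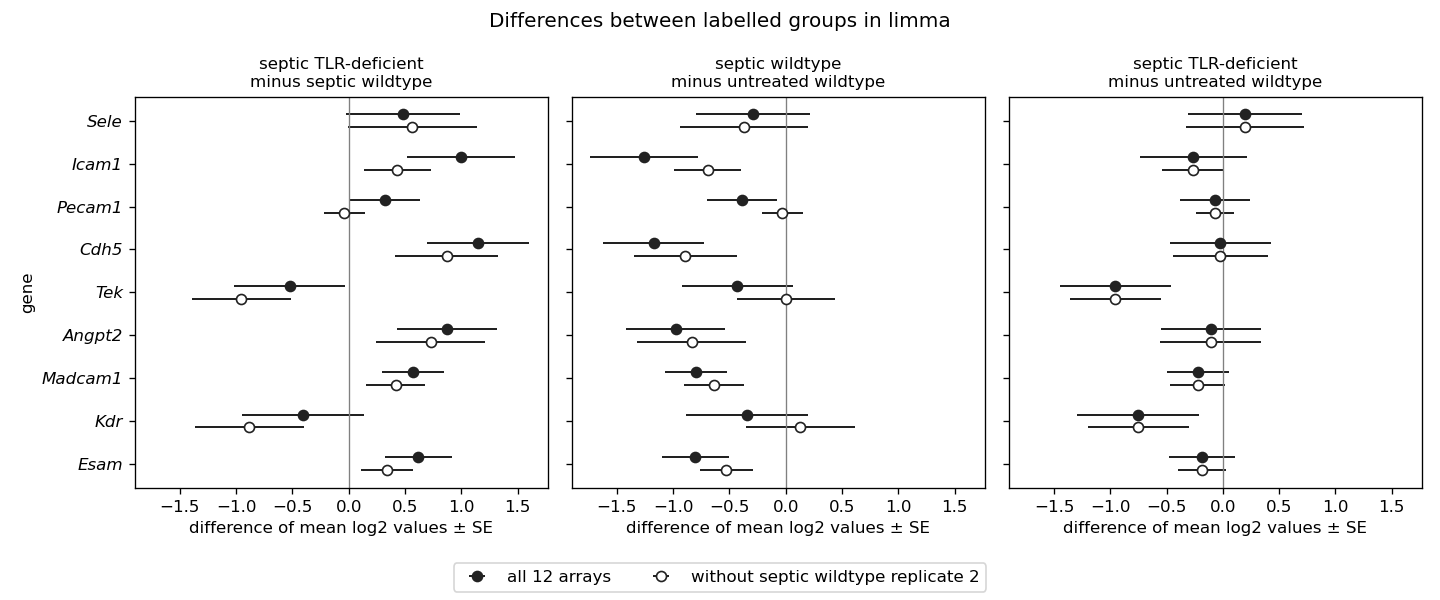
Differences of mean log2 values (x axes, bars are SE) of the 9 members (y axis) in the 3 comparisons, with all 12 arrays (filled) and without septic wildtype replicate 2 (open). Leaving that array out takes Icam1 to 0.43 in the first comparison, against 0.996 with it, and takes Tek and Kdr to -0.95 and -0.88; Pecam1 lies near 0 without it, and after a further quantile normalization its sign turns.

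Other genes listed as inducible in endothelium were described beside the members. Which spleen cells carried their transcripts was not tested, and no direction of change was set for each gene beforehand. Of 22 listed, 20 were measured. Between the septic groups, 16 of 20 had higher means, with a median difference of 0.72, 0 of 20 passed in limma, and 7 of 20 had an unadjusted p under 0.05, against 43.9% higher and 6.65% under that p among all genes. Edn1, which encodes the vasoconstrictor endothelin-1, averaged 7.22 ± 1.14 on septic TLR-deficient and 5.27 ± 0.28 on septic wildtype arrays (SD, n = 4 each) without overlap, as in 2.05% of all genes. The gap was narrow, with Edn1 at 5.67 on septic TLR-deficient replicate 4 and 5.64 on septic wildtype replicate 1. Its 4 values on M5 to M7 and M16 were 8.11, 8.03, 7.08 and 8.59, and the other 8 arrays lay between 5.04 and 5.67. Tnfaip3, the NF-kappaB brake A20, had a difference of 1.87 (SE 0.64).

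Between septic wildtype and untreated arrays 16 of 20 had lower means, with a median of -0.92, and 6 of 20 had an unadjusted p under 0.05, against 44.9% and 8.81% of all genes. Adamts4, a protease that cleaves proteoglycans, had a difference of -1.70 (SE 0.88), or -0.89 without untreated replicate 4, and Procr, the endothelial protein C receptor, of -1.59 (SE 0.50), with every septic wildtype array below every untreated one. Of the 20 genes 6 were lower without overlap, against 2.74% of all genes. Between septic TLR-deficient and untreated arrays the 20 genes had a median of 0.02, with 13 of 20 higher and 0 of 20 at an unadjusted p under 0.05, against 51.9% and 1.88% of all genes. Without untreated replicate 4 the median was 0.25, with 16 of 20 higher, against 51.4% of all genes. By title run, M5 to M7 and M16 were set against the other arrays without septic wildtype replicate 2. Higher without overlap were 7 of 20, against 2.18% of all genes, and 2 of 20 (Vcam1 and Klf2) were lower, against 5.07%. Of M8, M9 and M11 against M12 to M15, 9 of 20 were lower without overlap and 2 of 20 higher, against 6.35% and 7.87%. Procr was at 7.96 to 8.85 on M5 to M7 and M16, 4.99 to 6.53 on M8 to M11 and 6.62 to 7.42 on M12 to M15. Plat, tissue plasminogen activator, was at 6.95 to 8.71, 4.45 to 5.75 and 4.64 to 5.51 on the same runs.

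Vcam1, which encodes the ligand of the integrin alpha-4 beta-1 and is also made by red pulp macrophages, did not follow Sele. It was at 10.04, 9.97, 10.38 and 11.14 on septic TLR-deficient replicates, 11.07, 8.97, 11.07 and 11.09 on septic wildtype replicates, and 11.58, 11.18, 11.26 and 10.80 on untreated replicates. Its differences were -0.17 between septic TLR-deficient and septic wildtype, -0.65 between septic wildtype and untreated and -0.82 between septic TLR-deficient and untreated arrays (adjusted p = 0.841, 0.439 and 1 in limma). Without septic wildtype replicate 2 the first was -0.70 and the second -0.13, and the first was 0.01 without any other single septic wildtype array.

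**Figure D3:**
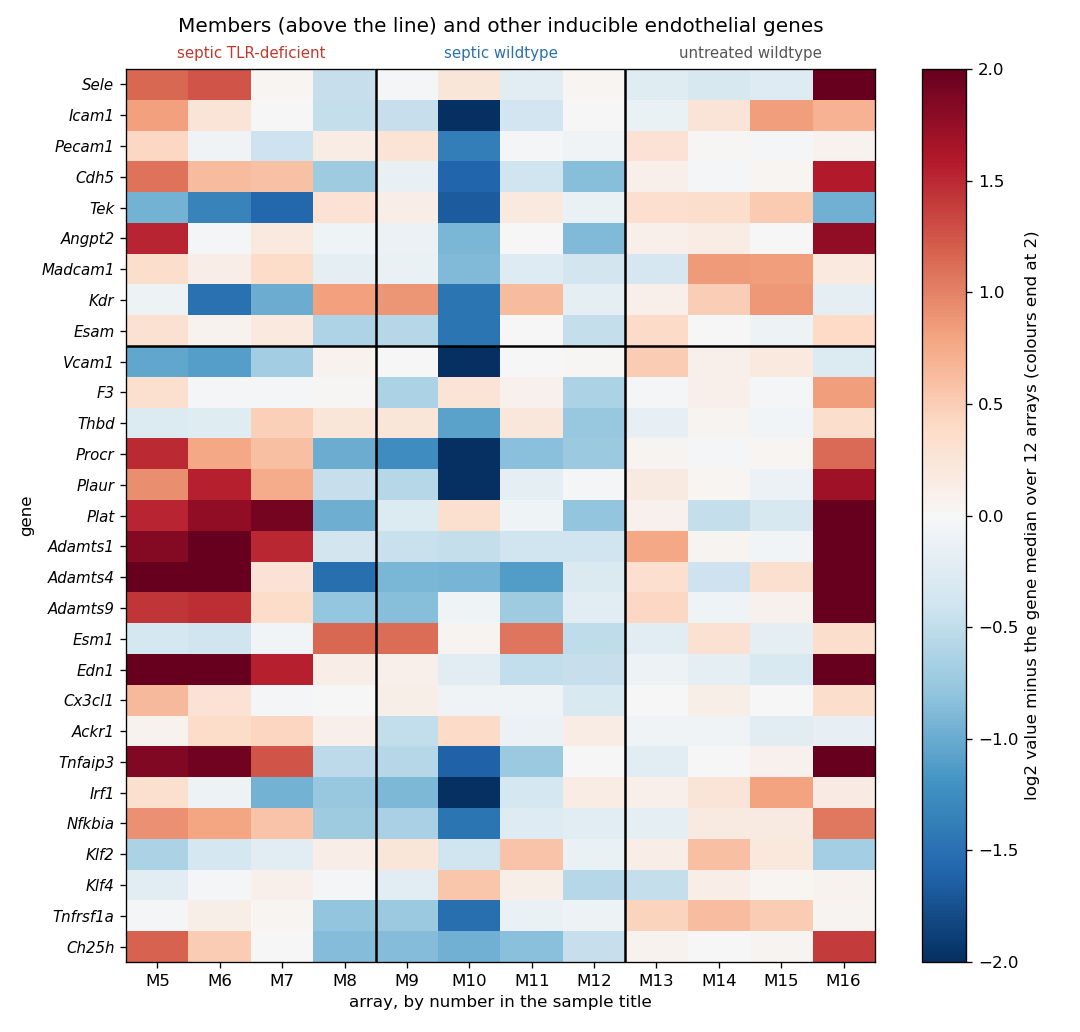
Log2 value minus the gene's median over 12 arrays (colour) for the 9 members and 20 further genes listed as inducible in endothelium (y axis) by array (x axis, by title number, with labelled groups above). Edn1, Plat and Tnfaip3 are red on M5 to M7 and M16, where Tek and Vcam1 are blue, and septic wildtype replicate 2 (M10) is blue for 8 of the 9 members relative to their medians.

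Vessel identity genes beyond the members were mixed. Of 25 measured, 15 had higher means on septic TLR-deficient than on septic wildtype arrays (median 0.10), 8 were higher on septic wildtype than on untreated arrays (median -0.40), and 5 were higher on septic TLR-deficient than on untreated arrays (median -0.30). Among all genes 43.9%, 55.1% and 51.9% had higher means in that order. None of the 25 passed in limma, and 1, 5 and 2 had an unadjusted p under 0.05 in that order, against 6.65%, 8.81% and 1.88% of all genes. Without septic wildtype replicate 2 the first 2 counts of higher means were 10 and 9 of 25, with medians of -0.09 and -0.10. Lyve1, a hyaluronan receptor of lymphatic and some sinus endothelium, was at 8.65, 8.94, 8.12 and 5.03 on septic TLR-deficient replicates, 5.34, 5.20, 5.88 and 5.90 on septic wildtype replicates, and 7.64, 5.56, 6.41 and 9.75 on untreated replicates. Its differences were 2.10 (SE 0.89) between the septic groups and -1.76 (SE 0.89) between septic wildtype and untreated arrays, the second -0.96 without untreated replicate 4. Flt4, the VEGFR3 of lymphatic and sinus endothelium, had 0.51 (SE 0.28; 0.32 without septic TLR-deficient replicate 1 and 0.82 without replicate 4) and -0.93 (SE 0.28) there. Between septic TLR-deficient and untreated arrays, Plvap, which forms the diaphragms of fenestrated endothelium, had -0.74 (SE 0.35) and Stab2 -0.70 (SE 0.51; -0.39 without untreated replicate 1). Stab2, a scavenger receptor of sinus endothelium, was at 7.21 to 7.84 on M5 to M7 and M16. It was at 8.48 to 9.51 on the other arrays without septic wildtype replicate 2. Its levels did not mirror Lyve1 on every array, since untreated replicate 1 had Lyve1 at 7.64 and the highest Stab2 value, 9.51. Icam2, a constitutive endothelial integrin ligand, was likewise at 6.55 to 7.18 against 7.39 to 7.77, and Vwf, which encodes von Willebrand factor, at 5.51 to 6.11 against 6.28 to 6.57. These 3 genes were among 7 of 25 lower without overlap between those arrays, against 5.07% of all genes. Lyve1 was the 1 of 25 that was higher, against 2.18%.

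Of the angiopoietin, Tie and VEGF genes, 18 were measured and 0 passed in limma in each comparison. Between septic wildtype and untreated arrays 14 of 18 had lower means and 6 of 18 had an unadjusted p under 0.05, with a median of -0.30, against 44.9% and 8.81% of all genes. Without septic wildtype replicate 2 the median was -0.14, with 14 of 18 lower. Flt1, which encodes VEGFR1, averaged 6.62 ± 0.22 on septic wildtype and 7.32 ± 0.25 on untreated arrays (SD, n = 4 each), and the Notch receptor gene Notch1 stood at -1.12 (SE 0.38; -0.70 with septic wildtype replicate 2 left out), each without overlap, as was Flt4. They were among 6 of 18 genes lower without overlap, against 2.74% of all genes. Between septic TLR-deficient and untreated arrays 17 of 18 had lower means, with a median of -0.30, and 2 of 18 had an unadjusted p under 0.05, against 48.1% and 1.88% of all genes. Tie1, the partner receptor of Tie2, had -0.68 (SE 0.32) there and Nrp1, a VEGF co-receptor, -0.78 (SE 0.32; -0.51 without septic TLR-deficient replicate 2). Angpt1, the ligand that keeps Tie2 active, had differences of 0.06, -0.11 and -0.05 in the 3 comparisons, and each turned sign without some single array. Between the septic groups 12 of 18 had higher means (median 0.07; 9 of 18 and -0.06 without septic wildtype replicate 2) and 0 of 18 had an unadjusted p under 0.05, with Dll4, a Notch ligand of vessels, at 0.60 (SE 0.33; 0.29 without septic TLR-deficient replicate 1 and 0.91 without replicate 4) and Nrp2, a co-receptor of VEGFR3, at 0.57 (SE 0.29; 0.30 without septic wildtype replicate 2).

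On the leukocyte side of adhesion, 19 genes were measured and none passed in limma, with 2, 1 and 0 at an unadjusted p under 0.05, near the 6.65%, 8.81% and 1.88% of all genes. Their median differences were 0.15 between the septic groups, -0.34 between septic wildtype and untreated arrays and -0.09 between septic TLR-deficient and untreated arrays. The first 2 medians were -0.11 and 0.02 without septic wildtype replicate 2. Selplg, the selectin ligand PSGL-1, had differences of 0.15, -0.56 and -0.41 in that order, and Itgb2, the beta-2 integrin chain that pairs with the ICAM-1 binding subunits, 0.31, -0.31 and 0.0020. In the first 2 comparisons, Selplg had -0.11 and -0.30 and Itgb2 -0.06 and 0.06 without septic wildtype replicate 2. Itgb7, the beta chain of the MAdCAM-1 receptor, was at 6.10 to 7.02 on M5 to M7 and M16 against 7.53 to 8.69 on the other arrays without septic wildtype replicate 2. It was among 3 of 19 lower without overlap there, against 5.07% of all genes, and 1 of 19 (B4galt1) was higher, against 2.18%. B4galt1, a galactosyltransferase, had 1.0005 (SE 0.42) between the septic groups without overlap, as in 2.05% of all genes, and -0.85 (SE 0.42) between septic wildtype and untreated arrays, where the integrin gene Itgav had -0.76 (SE 0.41). The B4galt1 values were 0.43 and -0.28 and the Itgav value -0.32 without septic wildtype replicate 2, and Itgav had -0.48 without untreated replicate 4. Itgax, the CD11c chain of dendritic cells, had -0.67 (SE 0.54) between septic TLR-deficient and untreated arrays.

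Junction and transmigration partners numbered 17 measured genes. Their medians were 0.28, -0.54 and -0.09, none passed in limma, and 3, 5 and 0 had an unadjusted p under 0.05, against 6.65%, 8.81% and 1.88% of all genes. The first 2 medians became 0.04 and -0.18 without septic wildtype replicate 2. F11r, the junctional molecule JAM-A, had differences of 1.03 (SE 0.34), -0.997 (SE 0.34) and 0.04 (SE 0.34), the first 2 at 0.68 and -0.64 without septic wildtype replicate 2, and Pvr, the poliovirus receptor used in transmigration, 0.89, -0.98 and -0.10 (SE 0.36 each). Between septic TLR-deficient and untreated arrays, Jup, the junction plaque protein plakoglobin, had -0.90 (SE 0.56) and Ptprb, the phosphatase VE-PTP that acts on Tie2 and VE-cadherin, -0.62 (SE 0.40), the second lower without overlap, as were 0.998% of all genes. Without untreated replicate 4 Jup had -1.405.

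Markers of other cell types moved across the same arrays. The mean log2 level of 5 B cell markers (of 6 listed) was 8.48 to 10.39 on septic TLR-deficient, 8.37 to 10.44 on septic wildtype and 8.68 to 10.16 on untreated arrays, and all 5 were lower without overlap on M5 to M7 and M16 than on the other arrays without septic wildtype replicate 2, against 5.07% of all genes. The 6 neutrophil markers were at 6.86 to 7.39, 6.20 to 8.97 and 6.11 to 9.09, and all 6 were lower without overlap on M8, M9 and M11 than on M12 to M15, against 6.35% of all genes. Of the platelet markers, which matter for Pecam1 and Esam, 9 of 12 were measured, at a mean level of 6.89 to 7.47, 6.73 to 7.52 and 6.80 to 7.45. Means were higher in 4, 5 and 5 of 9 in the 3 comparisons, against 43.9%, 55.1% and 51.9% of all genes. On M5 to M7 and M16, 3 of 9 platelet markers (Gp5, Ppbp and Clec1b) and 3 of 7 red pulp macrophage markers (Cd163, Vcam1 and Slc40a1) were lower without overlap than on the other arrays without septic wildtype replicate 2, against 5.07% of all genes. The same 3 platelet markers and 2 of 7 red pulp macrophage markers (Adgre1 and Slc40a1) were higher without overlap on M8, M9 and M11 than on M12 to M15. That compares with 7.87% of all genes, and 0 of either list were lower there, against 6.35%. The 7 red pulp macrophage markers, Vcam1 among them, were at 8.06 to 9.77, 7.84 to 9.70 and 8.46 to 9.08, and the 10 fibroblast and pericyte markers at 6.86 to 7.40, 6.29 to 7.47 and 7.20 to 7.66. T cell markers (5 of 6) were at 7.16 to 8.18, 7.13 to 8.34 and 7.12 to 8.39, and erythroid markers (5 of 6) at 8.03 to 8.84, 6.61 to 8.69 and 6.57 to 7.77. The 5 endothelial markers, all members, were at 6.89 to 7.48, 5.82 to 7.44 and 7.50 to 7.59. No value on this scale is 0, and the part of these cell types in the members' values was not tested.

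**Figure D4:**
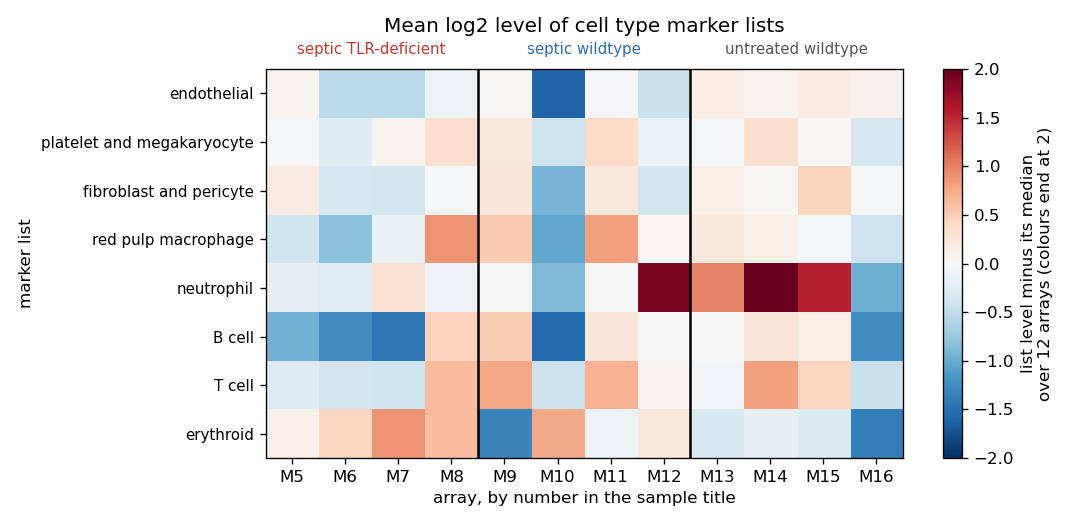
Mean log2 level of each cell type marker list minus its median over 12 arrays (colour), by list (y axis) and array (x axis, by title number, with labelled groups above). B cell markers are low on M5 to M7, M10 and M16, neutrophil markers are high on M12 to M15, and the endothelial list is lowest on M10.

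Likeness was described by Pearson's r over the 11 arrays without septic wildtype replicate 2, with no test, since arrays sharing a run weigh on it together. The genes most like Sele were Tnc, which encodes the matrix protein tenascin-C, and Tmem252 and Birc3, an NF-kappaB-induced inhibitor of apoptosis, at r = 0.97, 0.96 and 0.96. Over all 12 arrays they were at 0.94, 0.93 and 0.50. Icam1 was most like Atf3, a stress-induced transcription factor, Mlkl, the effector of necroptosis, and Rrp12, at 0.97, 0.96 and 0.96 (0.88, 0.89 and 0.65 over 12 arrays). Cdh5 was most like Slc35g2, Emp1 and Sh3pxd2b (0.96, 0.95 and 0.95; over 12 arrays 0.67, 0.93 and 0.96), and Angpt2 like Adgrf5, an adhesion receptor of endothelium and lung epithelium, Ank2 and Acsl4 (0.96, 0.96 and 0.95; over 12 arrays 0.86, 0.92 and 0.75). Tek was most like Fcmr, the IgM Fc receptor of B cells, with Fam171a1 and Crispld1 next (0.98, 0.97 and 0.97; over 12 arrays 0.87, 0.85 and 0.795), and Kdr like Map3k4, Psap, a lysosomal sphingolipid activator, and Itga6 (0.97 each; over 12 arrays 0.95, 0.97 and 0.89). For Madcam1 the top genes were Cfl1, Rnps1 and Sf3a2 (0.94 each; over 12 arrays 0.96, 0.80 and 0.95), for Esam Tmbim1, Lrrc8a and Cables1 (0.94 each; over 12 arrays 0.97, 0.96 and 0.40), and for Pecam1 Wdr35, Rgs9 and Nmnat1 (0.92, 0.89 and 0.88; over 12 arrays 0.36, 0.28 and -0.20). Within the set, over the same 11 arrays, Tek and Kdr were alike at r = 0.88, Cdh5 and Angpt2 at 0.88 and Sele and Cdh5 at 0.84, while Sele and Tek were at -0.71.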

How the data were processed

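Spleen RNA was measured on 12 Affymetrix arrays. Deposited values are log2 expression per probe set, made by RMA in Affymetrix Expression Console per the submitters' processing notes, with versions not given in the sources used here. Of 35557 probe sets, 21789 carried 1 symbol, 1621 several and 12147 none, and per gene the probe set with the highest mean over 12 arrays was kept (19938 genes). Each measured member had 1 probe set. Symbols were updated by gene identifier for 21698 probe sets.

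Groups follow the labels. All genes were fitted with limma 3.58.1 in R 4.3.3, with 1 mean per group over 12 arrays, moderated variances and Benjamini-Hochberg adjustment over all genes at 0.05. The code was tested on simulated data. The labels say biological replicates without naming separate animals, so p-values measure the spread between arrays. The number of arrays limits precision. Members and lists were chosen with earlier results of these data known. Named genes are the members, a fixed group of partner genes and the 2 largest differences per list and comparison. Others, such as Plat, were named after their values were seen. Same-numbered arrays did not deviate together from their group means (r -0.535 to 0.144), and the main fit did not pair samples. Since the arrays did not sort by label, this check cannot show whether replicate numbers pair samples. Alternatives were other scalings, a filter, mean probe sets, other variance models, array weights, a block and leaving out arrays. For list counts and list genes, leaving out arrays was chosen after seeing the data. Figures used matplotlib 3.10.9 in Python 3.11.15.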

Additional observations from a re-analysis of the deposited data

Results flagged for a closer look

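In 20 of 117 sets of 4 arrays (39 named genes in 3 groups), 1 array lay far from the other 3 of its label by Dixon's gap test, which chance does in about 1 in 20. The sets share the same arrays, and some genes were named for large differences on them. The count therefore cannot be weighed against that rate. Untreated replicate 4 accounted for 9. It was high for Sele (7.52, others 5.17 to 5.26), Cdh5 (9.12, others 7.49 to 7.63), Angpt2 (7.85, others 6.08 to 6.24), Edn1 (8.59, others 5.23 to 5.43), Procr (8.50, others 7.33 to 7.42) and Tnfaip3 (10.91, others 8.16 to 8.47). It was low for Tek (5.53, others 6.82 to 7.02), Itgb7 (6.10, others 7.79 to 7.85) and Jup (5.62, others 7.46 to 7.75).

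Septic wildtype replicate 2 accounted for another 9, each time as the lowest array: Vcam1 (8.97, others 11.07 to 11.09), Tie1 (6.02, others 7.49 to 7.70), Selplg (8.21, others 9.20 to 9.33), B4galt1 (6.64, others 8.80 to 8.99), Itgav (6.14, others 7.82 to 7.9995), Itgax (5.80, others 7.83 to 8.25), Nrp1 (6.46, others 7.28 to 7.34), Nrp2 (5.28, others 6.29 to 6.49) and Stab2 (6.52, others 8.58 to 8.82). The remaining 2 were Selplg on septic TLR-deficient replicate 3 (8.84, others 9.24 to 9.26) and B4galt1 on septic TLR-deficient replicate 4 (9.06, others 9.44 to 9.45).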

How the results depend on the processing

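With each of 20 other settings per comparison, 0 of 540 member differences had an adjusted p under 0.05 in limma and 26 had the other sign. The replicate block gave 0 genes and 0 members called in all 3 comparisons, with the same differences. Array weights called 1 gene between septic wildtype and untreated arrays. A further quantile normalization turned Pecam1 to -0.0294, 0.0482 and 0.0188 in the 3 comparisons and Cdh5 to 0.0749 between septic TLR-deficient and untreated arrays, where centring gave Cdh5 0.0058. Array weights turned Pecam1 to -0.0648 between the septic groups, Sele to 0.0298, Pecam1 to 0.0764 and Kdr to 0.0291 between septic wildtype and untreated arrays, and Pecam1 to 0.0116, Cdh5 to 0.33 and Angpt2 to 0.28 between septic TLR-deficient and untreated arrays. Leaving out 1 array at a time gave ranges across 0 for Pecam1 between the septic groups (-0.0388 to 0.51), for Sele (-0.50 to 0.29), Tek (-0.77 to 0.0001) and Kdr (-0.65 to 0.13) between septic wildtype and untreated arrays, and for Sele (-0.0575 to 0.77), Pecam1 (-0.20 to 0.0746), Cdh5 (-0.25 to 0.37), Angpt2 (-0.48 to 0.31) and Esam (-0.29 to 0.0185) between septic TLR-deficient and untreated arrays. Replicates 1 to 3 alone, chosen after seeing the data, called 141, 9 and 33 genes and 0 members, and turned Sele to 0.28 between septic wildtype and untreated arrays and Icam1 to 0.0384, Cdh5 to 0.74, Angpt2 to 0.48 and Esam to 0.0920 between septic TLR-deficient and untreated arrays. With septic wildtype replicate 2 left out as well, 1002, 19 and 675 genes and 3, 0 and 2 members were called, on arrays picked on their values and so no test. That setting turned Pecam1 to -0.14 between the septic groups, Sele to 0.15, Pecam1 to 0.0251 and Kdr to 0.27 between septic wildtype and untreated arrays, and, as with replicates 1 to 3, Icam1 to 0.0384, Cdh5 to 0.74, Angpt2 to 0.48 and Esam to 0.0920 between septic TLR-deficient and untreated arrays. The cause of these changes was not tested.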
